A study of Ovis aries with 16 samples.

Results

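The miRNAs oar-miR-143 and oar-miR-145 were described across the testes of 16 sexually mature male sheep. They were chosen by name and not by a measured value. Of the 2 miRNAs named, 1 (oar-miR-143) was among the 271 miRNAs analysed, which comprised 103 known miRNAs and 168 predicted by the authors. Oar-miR-145 itself was not analysed here. Candidate-miR-90, a predicted miRNA, is given beside oar-miR-143 as the miR-145 homologue. Its identity rests alone on a list in which the study paired its predictions with the miRNAs of other vertebrates. Predicted miRNAs are named candidate-miR with running numbers, so candidate-miR-143 and candidate-miR-145 share only a number with miR-143 and miR-145 and were paired with neither. Small RNAs were sequenced from frozen testis tissue with 1 library per male. One group of 8 males was well-fed, with feed allotted so that body mass would go up by 10%, and the other group of 8 was underfed, so that it would go down by 10%. Both treatments lasted 65 days, and the labels name no other treatment.

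In mammals, miR-143 and miR-145 are usually cut from a shared primary transcript. The pair is best known from smooth muscle of vessels and gut and from other mesenchymal cells, and is low in most epithelial and blood cells. In vascular smooth muscle, miR-145 represses KLF4 and miR-143 represses ELK1, and the pair favours the contractile over the proliferating state. In the testis, the cells of this kind are the peritubular myoid cells, which ring the seminiferous tubules and move their contents, and the muscle of the vessel walls. In the RefSeq annotation of the sheep genome, MIR143 overlaps a long non-coding RNA (LOC114114896), and its nearest protein-coding neighbours are IL17B and CSNK1A1.

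Values are CPM, reads scaled to a fixed total, in which the authors divided the miRNAs of a library by the sum of its miRNAs and the piRNAs (the longer small RNAs of germ cells) by the sum of its piRNAs. The CPM of a miRNA is therefore its share of the miRNA reads on another scale. The low values of a library were multiples of the worth of 1 read, which gave the depth. Libraries held between 17163 and 1058985 miRNA reads and between 18110 and 721305 piRNA reads, and 13 libraries held more than 100000 miRNA reads. The libraries below that were well-fed replicate 5 and underfed replicates 6 and 8. Underfed replicate 1 stood with the well-fed libraries in several totals. It held 0.517 miRNA reads for each piRNA read, against 0.355 to 0.908 in well-fed males and 1.40 to 3.13 in the other underfed males. The main diet comparisons of oar-miR-143 are given with and without it, and the counts over the marker lists only with it. The markers of male germ cells were present in the tissue, with the homologues of miR-34c (candidate-miR-31) and miR-449a (candidate-miR-161) at no less than 7483 and 3060 CPM in every library.

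Oar-miR-143 was the second most abundant testicular miRNA, with a mean of 18.02% of the miRNA reads over the 16 libraries. In well-fed males, in order of replicate number, it had 156984, 158735, 164469, 207461, 196411, 150264, 193997 and 188862 CPM. In underfed males it had 133410, 178039, 168459, 203605, 177680, 205993, 187458 and 211940 CPM. The groups overlapped over nearly their whole range, the lowest and the highest value were both from underfed males, and only 1 underfed male (replicate 8) exceeded the highest well-fed male. Oar-miR-143 was second among the miRNAs in 15 libraries, behind oar-miR-10b each time, and first in well-fed replicate 4.

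**Figure D1:**
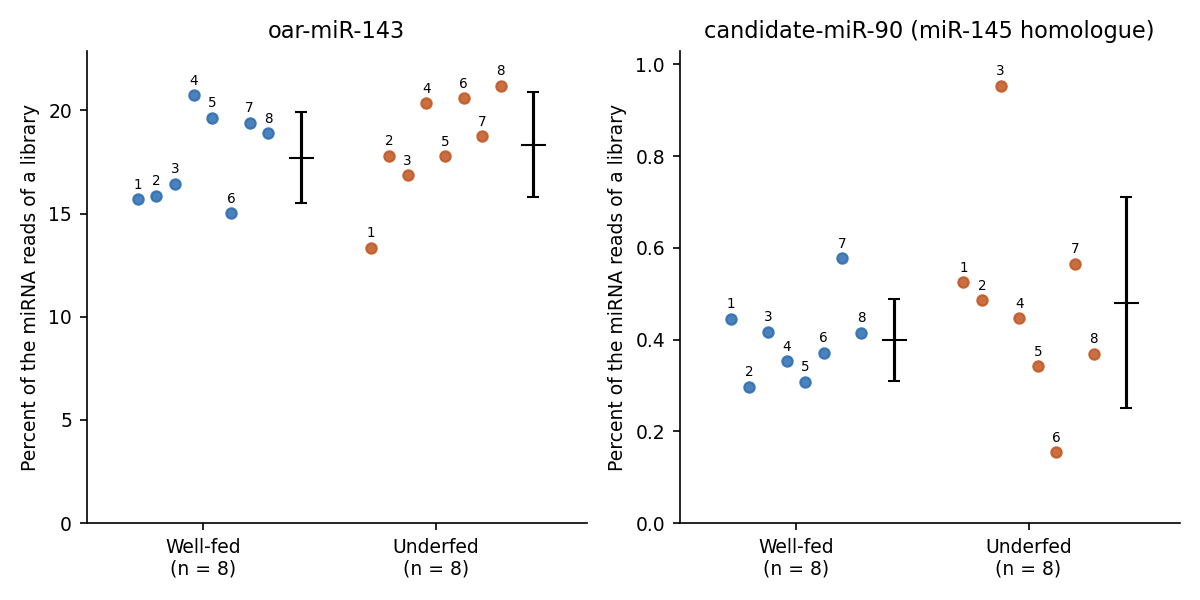
Percentage of the miRNA reads of each library taken by oar-miR-143 (left) and by candidate-miR-90, the miR-145 homologue (right). Points are libraries labelled by replicate number, and black bars are the mean ± SD of each diet (n = 8). Oar-miR-143 spans 13.3% to 21.2% with both diets overlapping, and candidate-miR-90 spans 0.155% to 0.954%, with both ends among underfed males.

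Counting error was small beside the spread between males. In the shallowest library, well-fed replicate 5, oar-miR-143 had 3371 reads, which gave 19.6% with a 95% Wilson interval of 19.1% to 20.2%. In underfed replicate 3, with 178396 reads, the interval was 16.8% to 16.9%. Reads amplified by PCR are not independent molecules, so such intervals cover counting error only. The values in well-fed males ranged from 15.03% to 20.7% (median 17.7%), and those in underfed males from 13.3% to 21.2% (median 18.3%).

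The miR-145 homologue was far less abundant. Candidate-miR-90 took 0.440% of the miRNA reads on average and was 33rd by mean CPM. In well-fed males it had 4460, 2973, 4177, 3527, 3088, 3721, 5773 and 4153 CPM in order of replicate number. In underfed males it had 5250, 4863, 9536, 4471, 3425, 1547, 5658 and 3693 CPM. The well-fed values lay within the range of the underfed ones, whose highest (replicate 3) and lowest (replicate 6) stood on both sides of them. The lowest rested on 43 reads, with a Wilson interval of 0.115% to 0.208%, and the highest on 10099 reads (0.935% to 0.972%). By rank among the miRNAs of a library, candidate-miR-90 lay between 17th and 44th.

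Oar-miR-143 outnumbered the miR-145 homologue in every library. There were 17.7 to 133 CPM of oar-miR-143 for each CPM of candidate-miR-90, with a median of 42.9. The ratio stayed between 33.6 and 63.6 in well-fed males and took up the full range in underfed males, with the lowest in replicate 3 and the highest in replicate 6. This is a ratio of reads, not of molecules.

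The share of oar-miR-143 varied little from male to male. As deposited, the coefficient of variation (SD as a percentage of the mean) was 12.3% for the well-fed and 13.9% for the underfed. The corresponding values for the miR-145 homologue were 22.4% and 48.0%. Of the 244 miRNAs with CPM above 5 in at least 8 libraries, oar-miR-143 had the smallest SD within a diet on the log2(CPM + 1) scale, at 0.198, while the median miRNA had 0.768. Most of the 244 are far less abundant, and their SD holds more counting error, so the median is no like comparator. Among abundant miRNAs, oar-miR-26a was close to oar-miR-143, with 0.211, and oar-miR-10b, the only miRNA more abundant, had 0.361. Candidate-miR-90 was in place 79 by this measure, at 0.573. The order depends on the scaling. After scaling with TMM (trimmed mean of M values) factors, which scale the libraries so that most miRNAs agree between them, the SD of oar-miR-143 was 0.355 and 29 miRNAs varied less. That of candidate-miR-90 was 0.609, in place 93, beside a median of 0.802.

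**Figure D2:**
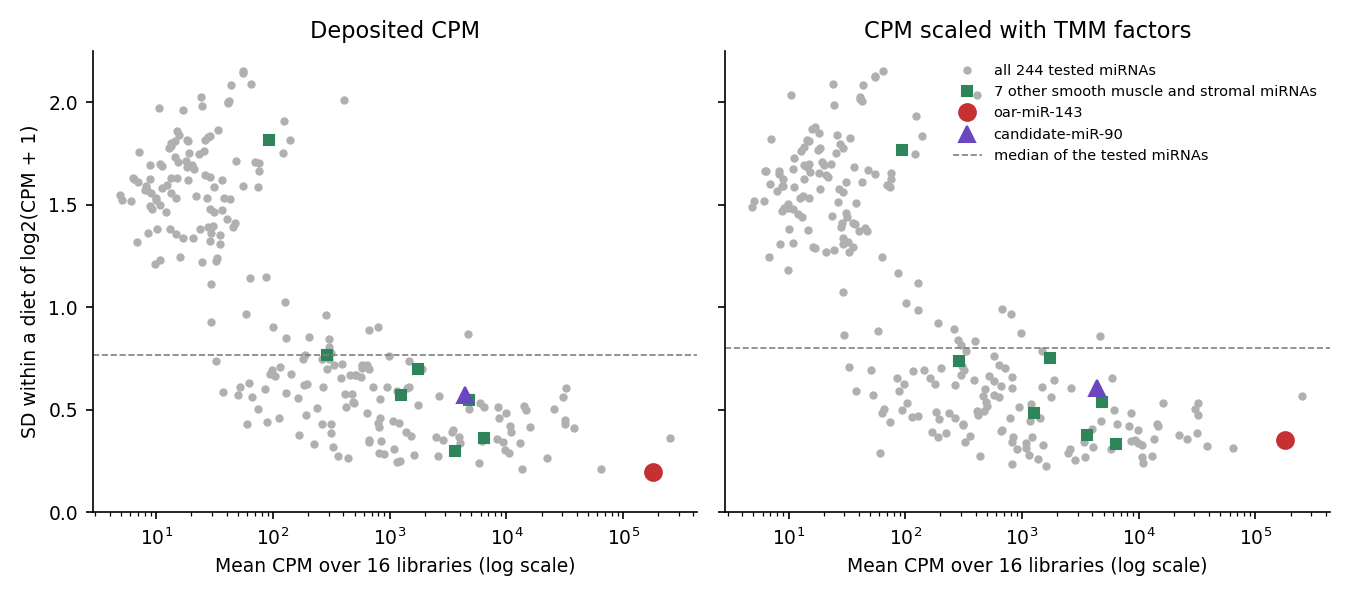
SD within a diet of log2(CPM + 1) against mean CPM over the 16 libraries (log scale) for the 244 tested miRNAs, from the deposited CPM (left) and after TMM scaling (right). The red circle is oar-miR-143, the triangle candidate-miR-90, squares are the 7 other tested miRNAs of the smooth muscle and stromal list, and the dashed line is the median. With deposited CPM, oar-miR-143 lies below all other miRNAs at 0.198, and after scaling it lies at 0.355.

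The first question of the design was whether the diet changed the level of the pair. The share of oar-miR-143 averaged 17.7% ± 2.18 with ample feed and 18.3% ± 2.54 with restricted feed (SD, n = 8 each). The difference of 0.618 percentage points had a 95% interval of -1.998 to 3.13 and was within the spread between males (p = 0.606, exact two-sided permutation test over 12870 arrangements). Without underfed replicate 1 the difference was 1.33 percentage points. The lowest p with any library left out was 0.211 (exact permutation test). In bulk tissue, fewer cells of a type and less RNA per cell cannot be told apart, and this holds for each comparison of the diets here.

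On the TMM-scaled log2(CPM + 1) scale, the fitted difference of oar-miR-143 was 0.52 (SE 0.20, 95% interval 0.11 to 0.93) towards underfed males. It did not pass the FDR threshold of 0.05 (unadjusted p = 0.0157, Benjamini-Hochberg FDR 0.112, from limma, a linear model fitted across all tested miRNAs), and the ratio of mean CPM, underfed to well-fed, was 1.03. By the same fit 3.28% of the 244 tested miRNAs were differentially expressed (DE), where DE required an FDR under 0.05 and a ratio of mean CPM under 0.67 or above 1.5, and 6.15% passed the FDR alone. An unadjusted p under 0.05 was found for 25.8% of them in either direction and for 14.3% in the direction of oar-miR-143. By p, oar-miR-143 stood 34th of the 244. A p under 0.05 was thus not particular to it.

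The fitted difference changed with the scaling between libraries. With the deposited CPM it was 0.05 (FDR 0.852, limma). With miRNAs and piRNAs scaled together it was 1.47 (FDR 0.00367, limma), and with median-of-ratios factors 0.38 (FDR 0.229, limma). The same scalings moved the median of all tested miRNAs from -0.08 with TMM to -0.51, 0.81 and -0.19. Relative to that median, oar-miR-143 stood at 0.60 with TMM, 0.55 with deposited CPM, 0.66 with joint scaling and 0.57 with median-of-ratios factors. A single library also bore on the call. Without underfed replicate 1, the lowest of the 16 values, the difference with TMM was 0.67 and the FDR 0.00488 (limma), while leaving out any of the other 15 libraries gave 0.42 to 0.57 and no FDR under 0.05.

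Candidate-miR-90 ran the same way in the main fit (limma with TMM, all libraries) and did not pass the FDR threshold there either. It averaged 3984 ± 894 CPM among the well-fed and 4805 ± 2305 CPM among the underfed (SD, n = 8 each), a ratio of 1.21. The fitted log2 difference was 0.62 (SE 0.27, 95% interval 0.06 to 1.18, unadjusted p = 0.0305, FDR 0.151, limma). It was 0.15 with the deposited CPM and 1.57 with joint scaling (FDR 0.00679, limma). In the 13 libraries above 100000 miRNA reads, where its lowest value drops out, it was 0.87 (FDR 0.0197, limma). Without underfed replicate 3, which had the highest value, it was 0.36 (FDR 0.400, limma).

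**Figure D3:**
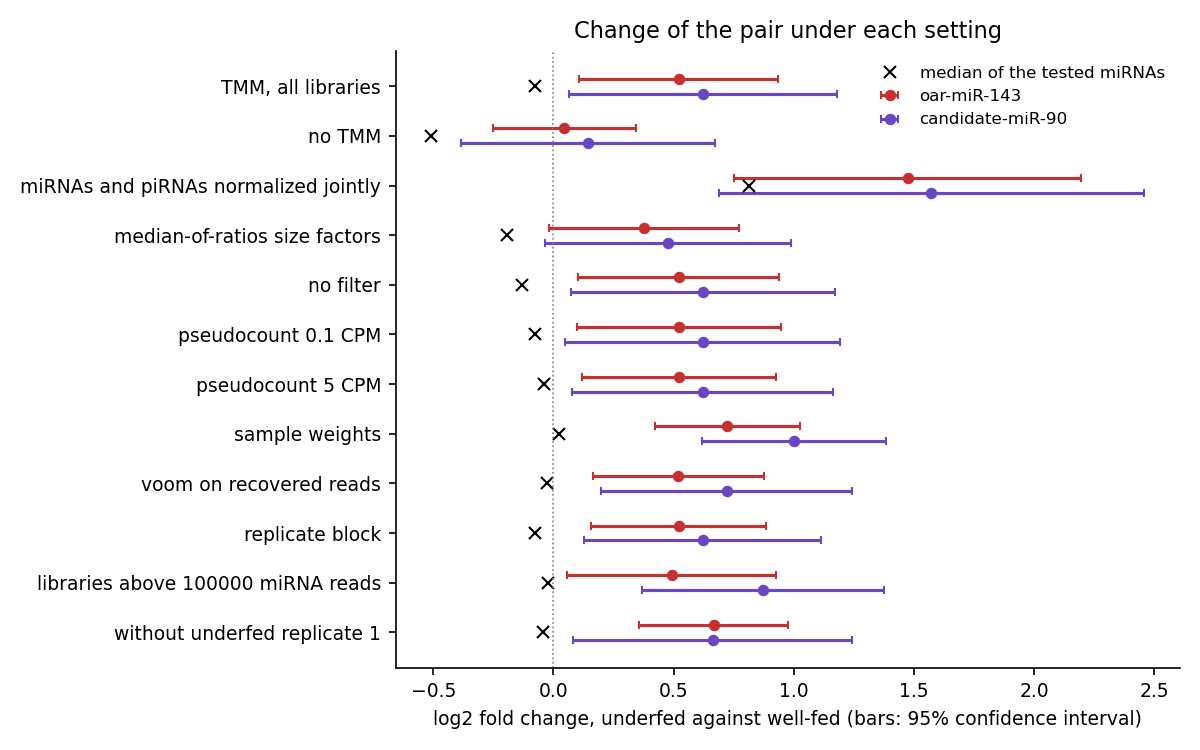
Log2 fold change of oar-miR-143 (red) and candidate-miR-90 (purple), underfed against well-fed, under each setting, with bars for the 95% confidence interval from limma and crosses for the median of the tested miRNAs. All points lie above 0 and to the right of the cross, and the distance from 0 depends on the scaling, from 0.05 with deposited CPM to 1.47 with joint scaling for oar-miR-143.

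Whether the pair moved as a unit was asked of the ratio of its members, which needs no scaling between libraries. The log2 ratio of candidate-miR-90 to oar-miR-143 averaged -5.49 ± 0.34 among the well-fed and -5.40 ± 0.87 among the underfed (SD, n = 8 each). The difference of 0.10 was within the spread (95% interval -0.61 to 0.78, p = 0.778, exact permutation test), and it was -0.08 without underfed replicate 3. The interval leaves room for a change of the ratio in either direction.

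Across the 16 libraries the scaled levels of the pair showed no firm relation (Pearson's r = 0.39, permutation p = 0.138; Spearman's rho = 0.39, permutation p = 0.139). Without the libraries farthest from the median of oar-miR-143 (underfed replicate 1 and well-fed replicate 3) r was 0.41. Within the diets r was 0.28 in well-fed males (exact permutation p = 0.522) and 0.10 in underfed males (exact permutation p = 0.792). With deposited CPM the sign turned, with r = -0.30 (permutation p = 0.266). Over the 13 deeper libraries r was 0.68 with TMM (permutation p = 0.0101, 0.0806 when adjusted over the 8 relations computed) and -0.01 with deposited CPM. All values after scaling share the factor of their library.

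Because each share depends on the other miRNAs of a library, oar-miR-143 was also set against the rest without oar-miR-10b, a Hox cluster miRNA whose own share averaged 20.9% ± 2.96 among the well-fed and 29.4% ± 8.03 among the underfed (SD, n = 8 each). The share of oar-miR-143 among the remaining miRNAs ranged from 18.9% to 26.9% (median 22.0%) in well-fed and from 15.5% to 28.8% (median 27.8%) in underfed males. In underfed males, 7 values lay between 26.5% and 28.8%, of which 5 exceeded every well-fed male, and replicate 1 lay apart at 15.5%. The means were 22.5% ± 3.19 and 26.3% ± 4.44 (SD, n = 8 each), a difference of 3.83 percentage points (95% interval -0.33 to 7.59) that did not pass the test (p = 0.0679, exact permutation test). Without underfed replicate 1 the difference was 5.37 percentage points (p = 0.00140, exact permutation test), and in the 13 deeper libraries it was 3.56 (p = 0.159, exact permutation test). Taking out oar-miR-10b, whose mean share was larger in underfed males, raises their mean more by arithmetic. These differences are therefore not independent of the difference in oar-miR-10b.

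Oar-miR-143 was higher in underfed males when measured against piRNAs. The piRNA reads here are those of the putative piRNAs kept by the authors, not all small RNAs of that length. In well-fed males there were 6.70 to 17.6 reads of oar-miR-143 for each 100 piRNA reads (median 9.57), with 8.09, 9.64, 9.49, 12.1, 13.2, 7.54, 17.6 and 6.70 in order of replicate number. In underfed males there were 6.90, 47.2, 52.7, 54.1, 24.9, 31.6, 30.8 and 31.8. All underfed males but replicate 1 lay above the highest well-fed male. On the log2 scale this ratio averaged -3.31 ± 0.46 among the well-fed and -1.72 ± 0.96 among the underfed (SD, n = 8 each), a difference of 1.59 (95% interval 0.79 to 2.31, p = 0.00218, exact permutation test). It was between 1.47 and 1.90 when any library was left out, with 1.90 without underfed replicate 1.

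This ratio moved with the totals of the small RNA classes, while the share of oar-miR-143 within the miRNAs differed by 0.618 percentage points. For each piRNA read there were on average 0.590 ± 0.159 miRNA reads among the well-fed and 1.88 ± 0.858 among the underfed (SD, n = 8 each). The 4 miRNAs of the male germ cell list, the homologues of miR-34b, miR-34c, miR-449a and miR-34, summed to between 4.76% and 7.11% of all miRNA reads with ample feed and between 1.10% and 5.82% with restricted feed, and candidate-miR-162 (miR-34) was at 0 in 2 libraries. The part of the germ cells in the ratio was not tested.

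**Figure D4:**
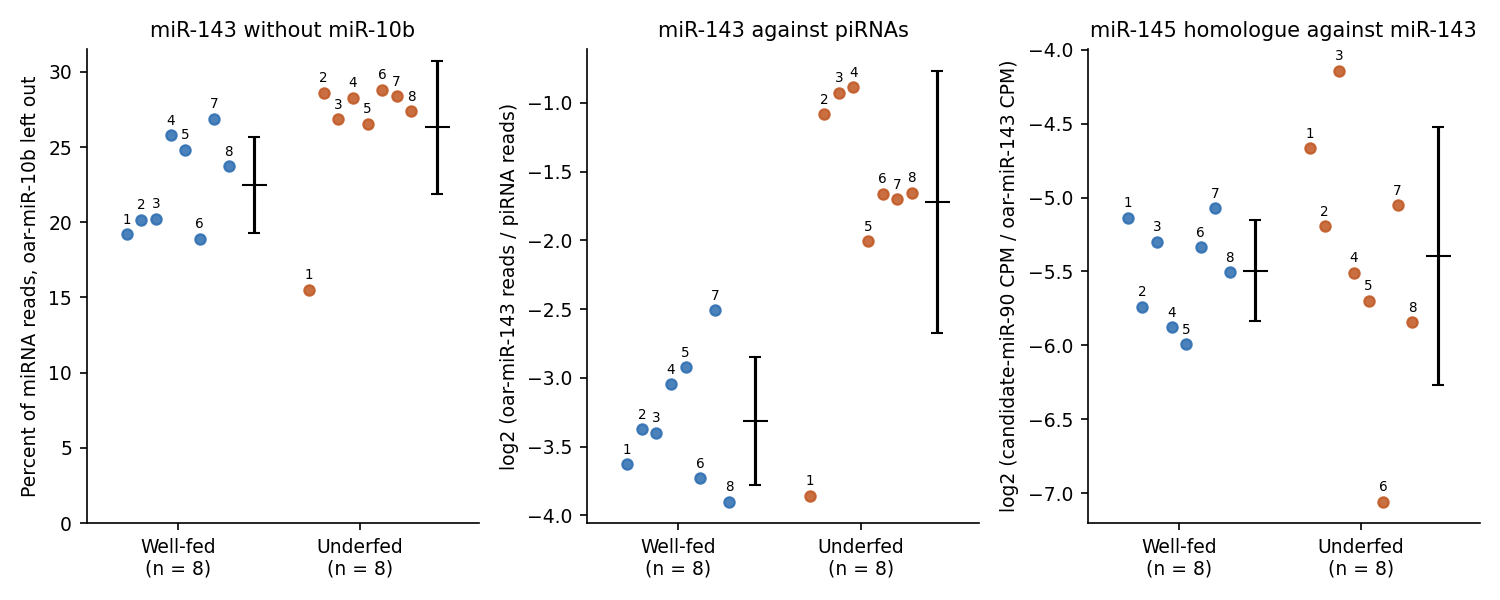
Values of oar-miR-143 set against other RNAs of the same library: its percentage of the miRNA reads with oar-miR-10b left out (left), the log2 ratio of its reads to the reads of the putative piRNAs (middle) and the log2 ratio of candidate-miR-90 to it (right). Points are libraries labelled by replicate number and black bars the mean ± SD (n = 8). In the middle panel 7 of 8 underfed males lie above the highest well-fed male (-2.51), with replicate 1 at -3.86.

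Against the other abundant miRNAs, oar-miR-143 shifted in both directions. The log2 ratio of oar-miR-143 to each of the other 9 most abundant miRNAs was compared between the diets, a comparison chosen after the values were seen, with exact permutation p adjusted over the 9. Against candidate-miR-31, the homologue of miR-34c, the ratio averaged 1.99 ± 0.33 among the well-fed and 3.41 ± 0.87 among the underfed (SD, n = 8 each; difference 1.42, adjusted exact permutation p = 0.0252), and 6 underfed males lay above the highest well-fed male. Against oar-miR-22-3p it was higher by 0.75 (adjusted exact permutation p = 0.0294). Against oar-miR-26a it averaged 1.70 ± 0.30 among the well-fed and 1.31 ± 0.28 among the underfed (SD, n = 8 each), a difference of -0.39 (adjusted exact permutation p = 0.0480), with 6 underfed males below the lowest well-fed male.

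The remaining ratios did not pass. The difference was -0.39 against oar-miR-10b and 0.73 against candidate-miR-121 (both with adjusted exact permutation p = 0.0669), and 0.51 against oar-miR-191. Against oar-let-7a, oar-miR-148a and oar-let-7f it lay between 0.01 and 0.14. The smallest differences were those for oar-miR-148a and oar-let-7f, with group means of the log2 ratio of 2.99 and 3.07 for oar-let-7f and of 2.54 and 2.55 for oar-miR-148a. Without underfed replicate 1, the number of ratios that passed went from 3 to 6 of 9, the additional ones being those to oar-miR-10b (-0.48), candidate-miR-121 (0.98) and oar-miR-191 (0.78).

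**Figure D5:**
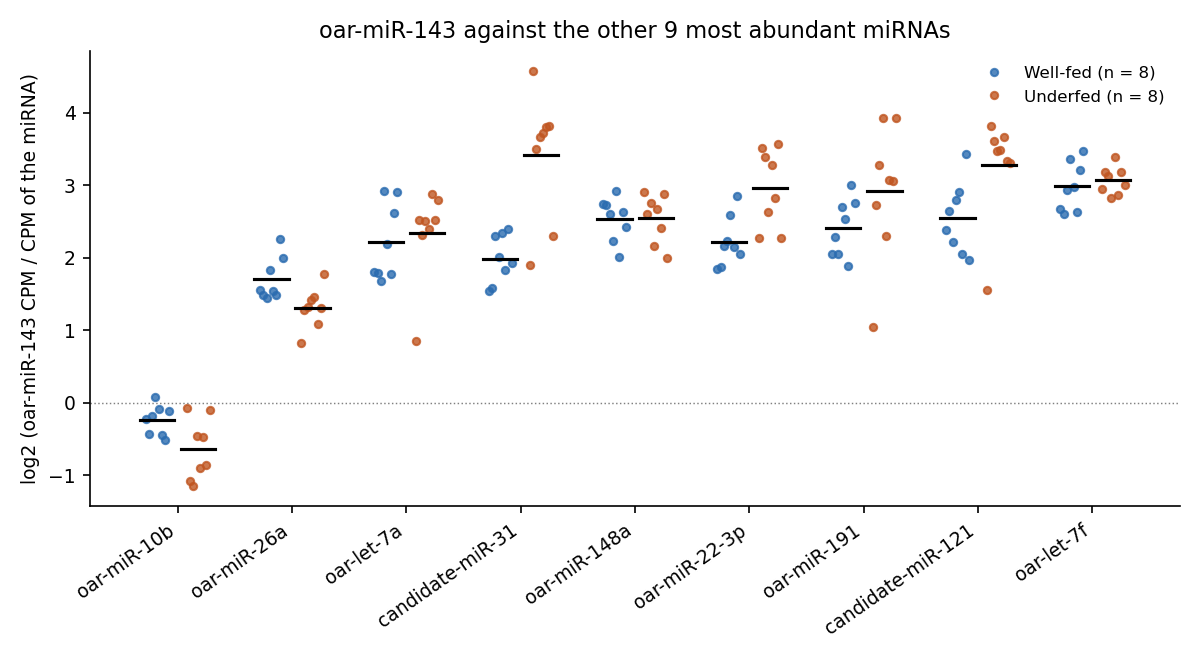
Log2 ratio of the CPM of oar-miR-143 to that of each of the other 9 most abundant miRNAs, in order of their mean CPM. Points are libraries (blue well-fed, orange underfed, n = 8 each), black lines are group means, and the dotted line marks equal levels. The ratio to candidate-miR-31 rises from a mean of 1.99 to 3.41, that to oar-miR-26a falls from 1.70 to 1.31, and that to oar-let-7f has means of 2.99 and 3.07.

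The miRNAs whose scaled levels followed oar-miR-143 most closely were found by Spearman's rho over the 16 libraries. Among 243 others, the highest rho was that of oar-miR-10b (0.89), followed by oar-miR-374a (0.86), oar-miR-26b (0.84), oar-miR-374b (0.83) and candidate-miR-144 (0.83), while the median of all others was -0.01. Candidate-miR-90 was in place 56 with 0.39. These values share the scaling factor of each library, and with deposited CPM the same 5 miRNAs had rho between 0.01 (candidate-miR-144) and 0.56 (oar-miR-374b). For candidate-miR-90 the closest were candidate-miR-16, the homologue of miR-214 (0.84), candidate-miR-134 (0.81), candidate-miR-191, a homologue of miR-133 (0.81), oar-miR-200b (0.79) and candidate-miR-63 (0.78). With deposited CPM, candidate-miR-191 was first for it (0.75), and oar-miR-143 was in place 73 with TMM and place 205 without. Candidate-miR-191 averaged only 8.76 CPM among the well-fed and 11.5 CPM among the underfed, and was at 0 in 2 libraries. Oar-miR-200b averaged 4.15 and 8.47 CPM and was at 0 in 5 libraries. In well-fed replicate 5, 1 read was worth 58.3 CPM, so the rho of both miRNAs rest on few reads.

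The marker lists were chosen with earlier results of these data known, and the study had reported miR-99a higher in underfed males. Counts over the lists are therefore not independent support for a change. The pair belongs to a list of 11 miRNAs known from smooth muscle and stromal cells, of which 9 were analysed and tested. All 9 had a fitted log2 difference above 0, which 47.1% of all tested miRNAs had, with a median of 0.56 beside -0.08 over all tested miRNAs. With TMM this sign was not particular to the list, since 3 of 3 striated muscle miRNAs (median 0.76), 4 of 4 epithelial miRNAs (median 0.85) and 5 of 6 blood cell miRNAs (median 0.21) also lay above 0. Of the 9, 1 was DE and passed the FDR threshold (oar-miR-99a, higher in underfed males), where 3.69% of all tested miRNAs passed it in that direction. An unadjusted p under 0.05 by limma was found for 5 of the 9, 3 of them other than the pair, beside 14.3% of all tested miRNAs in that direction. The direction rests in part on the scaling. With deposited CPM the difference was above 0 for 7 of the 9, and the mean CPM of candidate-miR-6 (miR-100) and candidate-miR-52 (miR-497) was lower in underfed males (ratios 0.768 and 0.914). In the other lists, deposited CPM put 3 of 3 striated muscle, 4 of 4 epithelial and 1 of 6 blood cell miRNAs above 0. Limma voom on the recovered reads gave an FDR under 0.05 for 5 of the 9, and for 19.3% of all tested miRNAs.

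Among the other members, oar-miR-199a-3p, which is made in fibroblasts and other mesenchymal cells, averaged 3423 ± 572 CPM among the well-fed and 3807 ± 935 CPM among the underfed (SD, n = 8 each; log2 difference 0.61, FDR 0.0527, limma). Oar-miR-125b averaged 6169 ± 1168 and 6703 ± 2124 CPM (SD, n = 8 each; log2 difference 0.56, FDR 0.0527, limma). Oar-miR-99a had 760 to 1279 CPM in well-fed and 1058 to 8418 CPM in underfed males (log2 difference 1.22, SE 0.33, FDR 0.0329, limma). Its highest value came from underfed replicate 6, without which the difference was 0.85 (FDR 0.0169, limma) and the ratio of mean CPM 1.38, short of the 1.5 that DE requires. With each of the 16 libraries left out in turn, oar-miR-99a passed the FDR threshold 9 times (highest FDR 0.0747, limma) and was DE 8 times. Summed, the 9 miRNAs took between 17.1% and 22.9% of all miRNA reads in a well-fed male and between 16.4% and 23.1% in an underfed male, nearly all of it oar-miR-143, and the 7 without the pair took 1.22% to 2.32% and 1.24% to 2.51%.

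Markers of striated muscle and epithelium took small shares of the miRNA reads, and no marker of these or of blood cells was called. Oar-miR-133 of the striated muscle list averaged 534 CPM among the well-fed and 501 CPM among the underfed. It was at 0 in no library and exceeded candidate-miR-16 of the smooth muscle and stromal list (267 and 314 CPM). The striated muscle list (miR-1 and miR-133) summed to at most 0.0818% of the miRNA reads, and 0 of its 3 tested members passed the FDR threshold of limma, had an unadjusted p under 0.05 or passed with voom. The epithelial list (the miR-200 family with miR-141 and miR-429) summed to at most 0.0180%, and the same 3 counts were 0 of 4. The blood cell list (such as miR-142, miR-486 and miR-150) summed to 1.68% to 2.76% in well-fed and 1.48% to 3.52% in underfed males. Of its 6 members, 0 passed the FDR threshold by limma or by voom, and 1 had an unadjusted p under 0.05 (candidate-miR-140, the homologue of miR-146b). Among all tested miRNAs, 6.15% passed the FDR threshold by limma, 25.8% had an unadjusted p under 0.05 and 19.3% passed with voom. With so few members, the counts do not set these lists apart from all tested miRNAs. Of the 4 male germ cell miRNAs, 2 passed the FDR threshold and were lower in underfed males, where 2.46% of all tested miRNAs passed it in that direction. Both were also DE, as were 3.28% of all tested miRNAs in either direction. The study had already reported the miR-34c homologue lower in underfed males, and this list too was chosen with earlier results known. These counts are therefore not independent support. All 4 fitted differences were below 0 (median -0.79). Scaling miRNAs and piRNAs together, which raised the median of all tested miRNAs to 0.81, put all 4 above 0, and relative to that median they lay between -0.76 and -0.00124. Of the lists, only that of the male germ cells had a median below 0 with TMM, and the differences between the lists were not tested.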

How the data were processed

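Reads were trimmed by the authors and matches to other RNA classes taken out. Lengths of 18 to 25 nt served for known and predicted miRNAs and 26 to 32 nt for piRNAs, and the authors used edgeR for their own comparisons. Of the longer reads, the authors kept those that matched the genome perfectly and that an online predictor classed as putative piRNAs. The piRNA reads given here are of these only. The notes of the submitters name CASAVA 1.8 and Oar_v3.1. The deposited signal was CPM made by the authors, each class divided by its own total and both stacked in 1 column, so that a column sums to more than 1000000 and the main test was run on a log scale, with limma voom on recovered reads as an alternative. Reads were recovered from the value of 1 read: 93.7% to 99.0% of low miRNA values were whole within 0.05 reads, and all were multiples of 0.5. Smallest shares that 3 reads can show were 0.000283% to 0.0175%.

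The members and the marker lists were chosen with earlier results of these data known. TMM factors (an own implementation, 30% of ratios and 5% of abundances trimmed) were computed on all 271 miRNAs. The 244 above 5 CPM in 8 or more libraries were fitted as log2(CPM + 1) with limma 3.58.1 (empirical Bayes trend, Benjamini-Hochberg FDR) in R 4.3.3, tested on simulated data. Single values were compared by exact permutation, with intervals from inverting that test, in Python 3.11.15. The p-values of the diet comparisons set a difference against the spread between males, and those of the correlations test a relation across libraries. Named miRNAs are the pair, the 10 most abundant, the 5 most like each member by rho, and the lists. Replicate numbers did not pair the males. Target assays of the study were not analysed here.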

Additional observations from a re-analysis of the deposited data

Results flagged for a closer look

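In groups of 8 libraries, a value was singled out when its gap to the nearest other value was large beside the range of the group by Dixon's criterion. This was so in 18 of the 88 groups examined. The criterion flags about 1 in 20 only where values are normal and groups independent. The groups here share libraries and most hold unlogged CPM, some of a single read. The count can therefore not be read as an excess over chance. The CPM of oar-miR-143 and of candidate-miR-90 was not among them in either diet.

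Underfed replicate 1 was apart in both values of oar-miR-143 set against other RNAs. Its share of the miRNA reads without oar-miR-10b was 15.5%, with 26.5% as the next value, and the log2 ratio of oar-miR-143 to piRNA reads was -3.86, with -2.01 as the next. The same library was high in oar-let-7a (74023 CPM), oar-miR-191 (64703 CPM) and candidate-miR-121 (45306 CPM).

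Underfed replicate 6, with 27797 miRNA reads, was high in oar-miR-99a (8418 CPM, next 2005), oar-miR-26a (96719 CPM) and candidate-miR-95 (108 CPM), and low in candidate-miR-63 (71.95 CPM). Well-fed replicate 5, with 17163 miRNA reads and 58.3 CPM to a read, was at 58.3 CPM, a single read, in oar-miR-200a, candidate-miR-95 and candidate-miR-98, and at 0 in candidate-miR-162. Well-fed replicate 7 was high in oar-miR-10b (278027 CPM), oar-miR-374a (109 CPM) and candidate-miR-141 (680 CPM). Underfed replicate 8 was high in candidate-miR-30 (3792 CPM) and underfed replicate 5 in candidate-miR-141 (911 CPM).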

How the results depend on the processing

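For the log2 fold change of oar-miR-143, joint scaling with piRNAs (1.47), sample weights (0.72, FDR 0.000293, limma) and voom on recovered reads (0.52, FDR 0.0397, limma) passed the threshold, as did leaving out underfed replicate 1 (range over libraries left out 0.42 to 0.67). For the miR-145 homologue, joint scaling (1.57), sample weights (1.00, FDR 0.00011, limma), voom (0.72, FDR 0.0489, limma) and the 13 deeper libraries (0.87) passed it, and leave-one-out values ran from 0.36 to 0.77. The number of DE miRNAs, 8, was 36 without TMM, 60 with joint scaling, 52 with sample weights, 26 with voom, 25 in the deeper libraries and 0 to 22 with a library left out (0 without well-fed replicate 2 or 8, 22 without underfed replicate 1). The share of oar-miR-143 among known miRNAs only differed by -0.76 percentage points (p = 0.574, exact permutation test). For the oar-miR-143 share of miRNA reads without oar-miR-10b, the difference of medians was 5.85 (p = 0.0334, exact permutation test), and leave-one-out values ran from 3.32 to 5.37. The log2 ratio of the pair ran from -0.0793 to 0.337 with a library left out. The correlation of the pair was -0.30 without TMM and 0.68 in the deeper libraries. Joint scaling turned the candidate-miR-31 log2 fold change (0.0496), the candidate-miR-121 log2 fold change (0.74) and the candidate-miR-161 log2 fold change (0.18) to above 0, where the median of all tested miRNAs moved from -0.08 to 0.81. The causes were not tested. The ratio to piRNA reads kept its direction and its side of the threshold under the alternatives run.

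In a fit with a replicate block, the FDR was 0.0747 for oar-miR-143 and 0.103 for candidate-miR-90 (limma) and 7 miRNAs were DE. Sign flips of the differences between same-numbered males gave p = 0.578 for the share, 0.0547 for the share without oar-miR-10b, 0.758 for the ratio of the pair and 0.0156 for the ratio to piRNA reads (exact permutation tests). Same-numbered males correlated at 0.0472 on average and others at 0.00582, with 3 of 8 pairs above 0.1, so the numbers were not taken to pair them. The planned edgeR test was not run, since the values did not pass as whole reads. Precision for candidate-miR-90 was limited in well-fed replicate 5 (53 reads) and underfed replicate 6 (43 reads).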
